A study of Saccharomyces cerevisiae with 48 samples.

Results

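The genes described here are those of peroxisome biogenesis and fatty acid oxidation in the budding yeast Saccharomyces cerevisiae. They were chosen by name: every gene called PEX with a number, and 13 named genes of fatty acid oxidation and its carnitine shuttle. The rule found 38 genes among the 5332 budding yeast genes tested, 25 PEX genes and 13 oxidation genes, each with 1 probe set. The RNA came from 1 continuous culture of strain IFO0233, which cycles between high and low respiration, and was hybridised to 48 Affymetrix Yeast 2.0 arrays, 1 for each sample taken every 4 min. Phenelzine, known as an inhibitor of monoamine oxidase, was added after the first sampled cycle. The 37 phenelzine samples cover 14.6 to 17.0 h after inoculation and the 11 control samples, from the same culture before the addition, cover 13.8 to 14.5 h. Times below are counted from the first phenelzine sample, so that control samples run from −44 to −4 min and phenelzine samples from 0 to 144 min. The stated purpose of the addition was to double the period of the cycle.

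Both groups share the strain, the fermenter and the medium, and no culture without phenelzine was followed over the later hours. Successive samples of 1 culture stand in for replicates, so the p-values measure the spread between these samples and not between cultures. Each array averages over all cells of a sample, so fewer cells with a transcript and less of it per cell cannot be told apart. Phenelzine cannot be told apart from the later time of sampling.

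Peroxisomes import their matrix proteins already folded, by receptors that cycle between the cytosol and the peroxisome membrane. In this yeast beta-oxidation of fatty acids takes place in peroxisomes alone. Its enzymes are repressed on glucose and induced by oleate through the factors Oaf1 and Pip2. The acetyl-CoA made there leaves as acetyl-carnitine or through the glyoxylate cycle, and the hydrogen peroxide made by acyl-CoA oxidase is removed by catalase.

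All 38 genes had mean signals above a background filter of log2 3.01, under which 90 percent of the probe sets for fission yeast on the same arrays lie. The defining enzymes POX1, FOX2 and POT1 were above this background on all 48 arrays. PEX18 was the only member ever below it, on 1 phenelzine array and 0 control arrays. Signals are given as log2 of quantile-normalized intensity, and no gene's level is set against another's, since probe sets differ in brightness. As deposited, the arrays differed in brightness, with medians of 32.4 to 86.8 over their probe sets. Array number 91 is missing from the array names, with 21 phenelzine and all 11 control arrays before it and 16 phenelzine arrays after it. For dap, a spiked control transcript, the 3′ signal exceeded the 5′ signal by a log2 of 2.50 ± 0.20 after this number (SD, n = 16) and of 1.75 ± 0.19 before it (SD, n = 32). The part of this shift in the results below was not tested, and slopes are given within each range of arrays too.

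The core beta-oxidation enzymes rose and fell once in each respiratory cycle. POX1, the acyl-CoA oxidase of the opening step, had lowest, median and highest log2 signals of 8.81, 10.28 and 11.06 in phenelzine samples and 9.14, 10.17 and 10.84 in control samples. FOX2, the multifunctional enzyme of the middle steps, had 7.88, 9.59 and 10.48 in phenelzine samples and 8.19, 9.56 and 10.00 in control samples. POT1, the thiolase of the last step, had 6.50, 8.03 and 9.26 in phenelzine samples and 6.88, 7.94 and 8.62 in control samples. The control samples of all 3 enzymes lay inside the range of the phenelzine samples. The samples after phenelzine hold 3 cycles, taken to start at 0, 48 and 96 min. The highest POX1 values were 10.82, 10.89 and 11.06 in these cycles, 8, 4 and 8 min after their start, and 10.84 in the control samples, at −36 min. For FOX2 they were 9.97, 10.27 and 10.48, 12, 8 and 8 min after the start, and 10.00 in the control samples, at −32 min. For POT1 they were 8.46, 8.87 and 9.26, 12, 16 and 8 min after the start, and 8.62 in the control samples, at −28 min. Each enzyme thus had 1 crest per cycle, and its highest value of all came in the last cycle sampled.

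A cosine of 48 min, the cycle length after phenelzine, was fitted to the 37 phenelzine arrays with limma. Its amplitude, the log2 distance from mean to crest, was 0.73 ± 0.06 (SE, n = 37) for POX1, 1.03 ± 0.08 for FOX2 and 0.92 ± 0.09 for POT1. The fitted crest was 2.76, 4.20 and 3.57 times the fitted trough for the 3 genes. The crests fell at 9.1 ± 0.7 min (SE) for POX1, 11.2 ± 0.6 min for FOX2 and 13 ± 0.8 min for POT1, in the order of the steps. Neighbours in this order lay about 2 min apart, which is less than the 4 min between samples, and the differences were not tested. Adjusted p-values of the rhythm were 1.8e-12, 1.8e-13 and 8.6e-11 (limma, F test, Benjamini-Hochberg). Of all probe sets tested, 87.8% passed this test, so passing it is no mark of these genes. Their amplitudes stood at the 92.2, 96.6 and 95.2 percentiles of all probe sets tested.

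**Figure D1:**
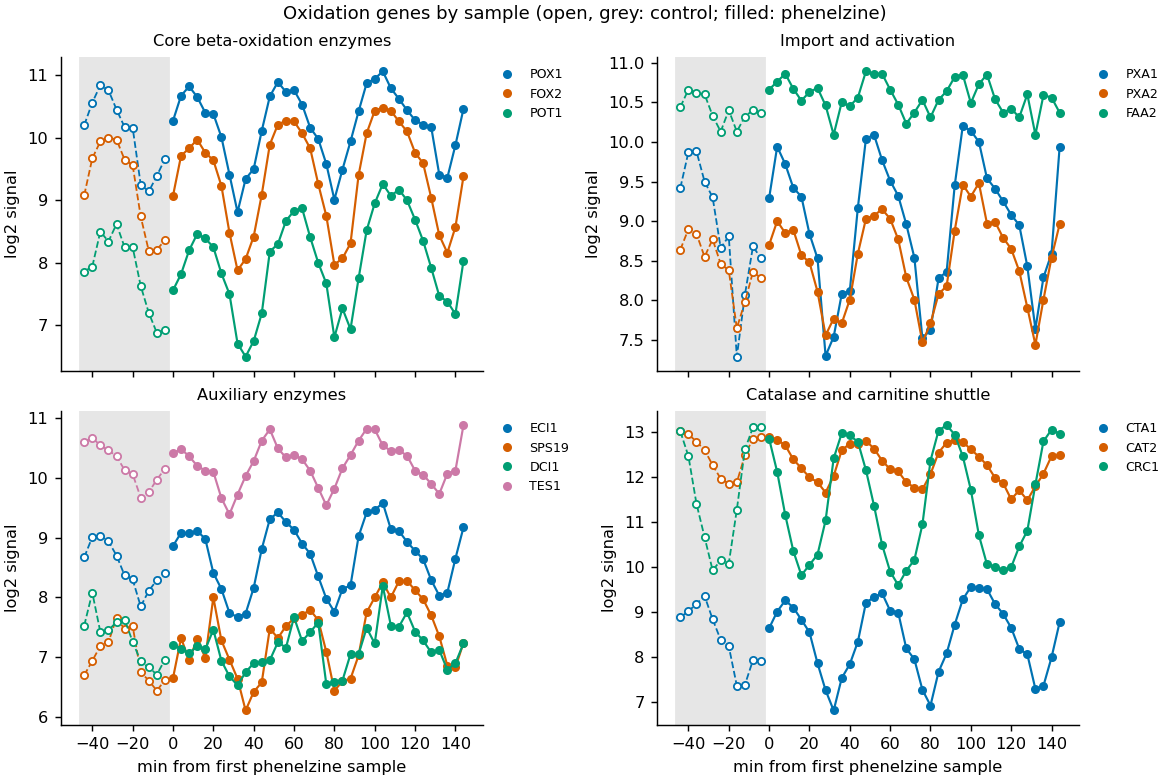
Log2 signal of the 13 oxidation genes (vertical axes) in each of the 48 samples against minutes from the first phenelzine sample, with filled points for phenelzine and open points on grey for control. By the fit all genes but CRC1 crest in the opening 16 min of the 48-min cycle. CRC1 is highest at 36, 88 and 140 min, and FAA2 varies least.

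The genes that bring fatty acids into the peroxisome differed in how far they moved. PXA1 and PXA2 encode the subunits of the ABC transporter for long-chain acyl-CoA. PXA1 had lowest, median and highest signals of 7.30, 9.17 and 10.20 in phenelzine samples and 7.29, 8.81 and 9.88 in control samples, with 10 of 11 control samples inside the phenelzine range. PXA2 had 7.44, 8.59 and 9.48 in phenelzine samples and 7.65, 8.46 and 8.90 in control samples. Their 48-min amplitudes were 1.05 ± 0.09 and 0.72 ± 0.06 (SE, n = 37), with crests at 7.4 ± 0.6 and 7.5 ± 0.6 min. The partner subunits thus crested within the error of the fit. FAA2, the acyl-CoA synthetase that activates medium-chain fatty acids inside the peroxisome, moved least of the 13 oxidation genes. It had 10.09, 10.56 and 10.89 in phenelzine samples and 10.13, 10.40 and 10.66 in control samples, and an amplitude of 0.19 ± 0.04, at the 42.0 percentile of all probe sets.

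The auxiliary enzymes handle unsaturated fatty acids or release free acids. ECI1, the delta3-delta2-enoyl-CoA isomerase, had 7.67, 8.81 and 9.58 in phenelzine samples and 7.85, 8.41 and 9.03 in control samples, with an amplitude of 0.71 ± 0.06 and a crest at 7.8 min. DCI1, its paralog, had 6.53, 7.14 and 8.19 in phenelzine samples and 6.71, 7.42 and 8.08 in control samples, with an amplitude of 0.35 ± 0.06 and a crest at 12.3 ± 1.4 min. After phenelzine the paralogs therefore shared a window of the cycle but not a size of swing. In the 11 control arrays, fitted with a cosine of 40 min, their amplitudes lay closer, at 0.52 ± 0.06 for ECI1 and 0.42 ± 0.12 for DCI1. SPS19, the 2,4-dienoyl-CoA reductase, had 6.11, 7.32 and 8.28 in phenelzine samples and 6.44, 6.94 and 7.66 in control samples, with an amplitude of 0.57 ± 0.10. Its crest at 15.2 ± 1.3 min was the latest of the 12 oxidation genes that crested in the opening 16 min. TES1, the peroxisomal acyl-CoA thioesterase, had 9.39, 10.28 and 10.88 in phenelzine samples and 9.67, 10.15 and 10.67 in control samples, with an amplitude of 0.43 ± 0.05 and a crest at 4.0 min. CTA1, the peroxisomal catalase, had 6.81, 8.64 and 9.56 in phenelzine samples and 7.36, 8.38 and 9.36 in control samples. Its amplitude was 1.03 ± 0.07, and its crest at 8.7 ± 0.6 min lay within the error of that of POX1, the enzyme whose peroxide it removes.

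The carnitine shuttle genes crested late in the 48-min cycle (CRC1) or at its start (CAT2). CRC1, the carnitine carrier of the mitochondrial inner membrane, had lowest, median and highest signals of 9.60, 11.16 and 13.16 in phenelzine samples and 9.93, 11.41 and 13.13 in control samples. Its amplitude of 1.66 ± 0.08 (SE, n = 37; adjusted p = 1.9e-18, limma) was the largest of the 38 genes and stood at the 99.5 percentile of all probe sets, with a fitted crest 10.02 times the trough. Its fitted crest was at 41.8 ± 0.4 min, and its highest values were 12.98, 13.16 and 13.06 at 36, 88 and 140 min after phenelzine and 13.13 at −4 min in the control. CRC1 was therefore near its trough while FOX2 and POT1 were near their crests, its lowest values after phenelzine coming at 16, 64 and 116 min. CAT2, the carnitine acetyltransferase of peroxisomes and mitochondria, had 11.49, 12.27 and 12.90 in phenelzine samples and 11.86, 12.61 and 13.03 in control samples, with 8 of 11 control samples inside the phenelzine range. It crested at 0.7 ± 0.7 min, between CRC1 and the beta-oxidation enzymes, with an amplitude of 0.51 ± 0.05.

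The PEX genes cycled with smaller amplitudes, and the widest swing among them belonged to a co-receptor. Proteins with the type 2 targeting signal, POT1's product among them, are carried by Pex7, which needs Pex18 or Pex21 as a partner. PEX21 had lowest, median and highest signals of 7.75, 10.23 and 11.72 in phenelzine samples and 8.85, 10.47 and 11.55 in control samples. Its highest values were 11.72, 11.67 and 11.45 at 36, 84 and 136 min after phenelzine and 11.55 at −4 min in the control. Its lowest values were 8.71, 7.95 and 7.75 at 12, 56 and 108 min after phenelzine and 8.85 at −32 min in the control. The fitted amplitude was 1.65 ± 0.09 (SE, n = 37; adjusted p = 8.1e-17, limma), at the 99.4 percentile of all probe sets, with a crest at 35.4 ± 0.4 min. PEX18, its paralog, had 2.80, 4.84 and 6.42 in phenelzine samples and 3.63, 5.02 and 6.42 in control samples. PEX18 crested at 10.5 ± 1.2 min with an amplitude of 0.80 ± 0.13, so the paralogs crested in different parts of the cycle. PEX18 lies near the background, and the standard error of its amplitude is the largest of the 38. PEX7 itself, with 9.87, 10.32 and 10.69 in phenelzine samples and 9.91, 10.21 and 10.49 in control samples, had an amplitude of only 0.25 ± 0.03 and a crest at 3.4 min. PEX5, the receptor for the type 1 signal, had an amplitude of 0.23 ± 0.04 and a crest at 45.7 min.

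Behind the receptors stands the import machinery. Of the docking and translocation genes, PEX17 had the largest amplitude, 0.48 ± 0.05, with a crest at 2.6 min. PEX14 had 0.25 ± 0.03 at 1.4 min and PEX8, which links the docking complex to the ubiquitin ligases, had 0.37 ± 0.03 at 13.1 min. PEX13, a membrane partner of PEX14's product, crested late in the cycle, at 36.9 min, with an amplitude of 0.38 ± 0.04. Since the cycle repeats, PEX13 crested about as long before PEX14 as PEX8 crested after PEX14. PEX13 had 9.35, 9.87 and 10.54 in phenelzine samples and 9.53, 9.67 and 10.37 in control samples. Of the RING ubiquitin ligase genes, PEX10 crested at 6.2 min (amplitude 0.49 ± 0.04) and PEX2 at 36.1 min (amplitude 0.42 ± 0.06). Within both complexes the crests thus lay further apart than the standard errors, 0.8 min for PEX13 and 0.9 min for PEX14, and the difference itself was not tested.

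The receptors are taken back to the cytosol after ubiquitination. PEX4, the ubiquitin-conjugating enzyme of this step, had an amplitude of 0.20 ± 0.04, and PEX22, its membrane anchor, had 0.24 ± 0.04. PEX6, an AAA ATPase that pulls receptors out, had 0.23 ± 0.04, and PEX15, its membrane anchor, had 0.30 ± 0.04. These 4 genes crested at 19.7, 10.5, 7.6 and 1.2 min. PEX3 and PEX19, the membrane anchor and the chaperone for peroxisomal membrane proteins, crested at 4.7 and 6.3 min with amplitudes of 0.33 ± 0.04 and 0.31 ± 0.04.

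The genes that set the number, size and endoplasmic reticulum contacts of peroxisomes came in families whose members differed. PEX30 had 8.79, 9.86 and 10.41 in phenelzine samples and 9.17, 9.68 and 10.23 in control samples, with an amplitude of 0.61 ± 0.04 and a crest at 9.3 min. Its relative PEX31 crested at 30.8 min with an amplitude of 0.22 ± 0.04, and PEX32 had the smallest amplitude of the 38 genes, 0.12 ± 0.02. PEX32 stayed between 8.45 and 8.97 in phenelzine samples and between 8.50 and 8.84 in control samples. PEX11, which elongates peroxisomes for division, and its relative PEX27 crested together, at 2.6 and 2.7 min, with amplitudes of 0.30 ± 0.02 and 0.32 ± 0.05. PEX25, the other relative, crested at 42.2 min with 0.35 ± 0.04. A cosine of 40 min fitted to the control arrays paired them otherwise, with PEX27 at −5.5 min, PEX25 at −5.6 min and PEX11 at −37.3 min. As a 40-min cycle repeats, −37.3 min is the same phase as a point shortly after 0 min. PEX11 thus lay closer to the other crests than these times look. PEX27 did not pass in that fit (adjusted p = 0.053, limma). PEX28, PEX29 and PEX34 had amplitudes of 0.32, 0.36 and 0.17.

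**Figure D2:**
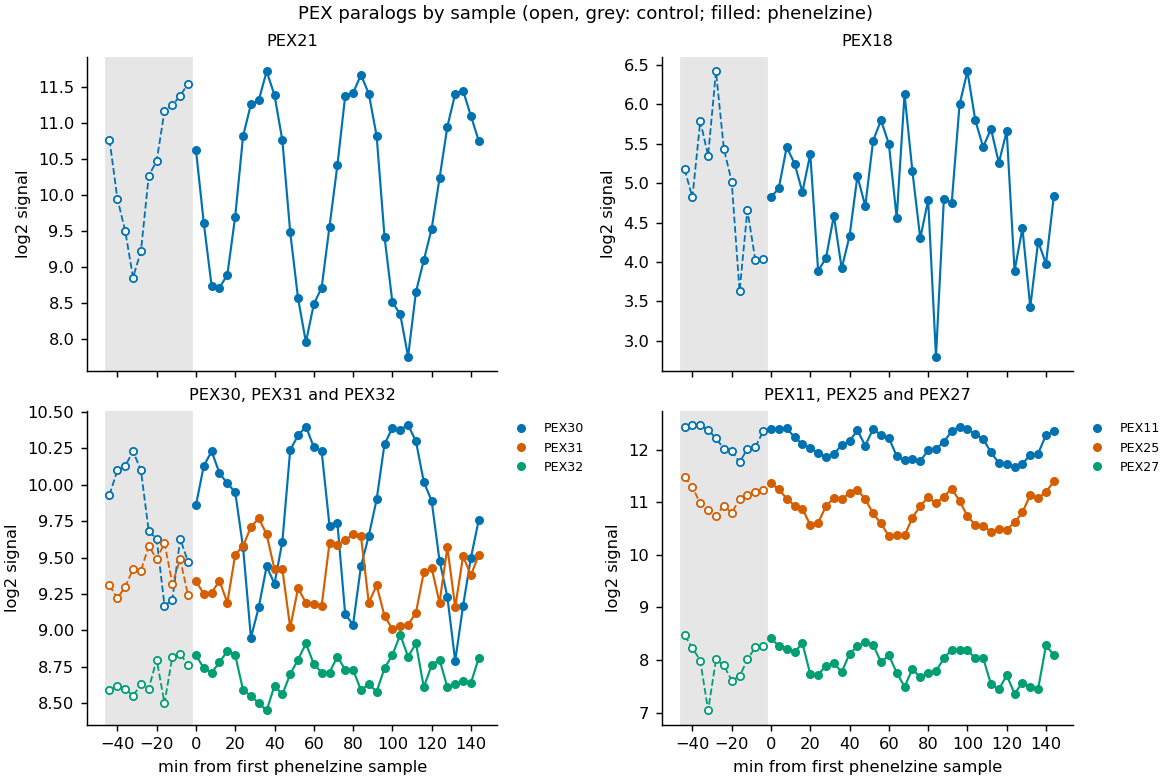
Log2 signal of PEX21, PEX18 and the PEX30 and PEX11 families (vertical axes) in each of the 48 samples against minutes from the first phenelzine sample, with filled points for phenelzine and open points on grey for control. PEX21 crests at 36, 84 and 136 min between the crests of PEX18 and PEX30, and PEX32 is nearly flat.

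Set side by side, both classes passed the 48-min test throughout, 25 of 25 PEX genes and 13 of 13 oxidation genes, against 87.8% of all probe sets. Their sizes of swing differed, with a median amplitude of 0.32 in the PEX genes, 0.72 in the oxidation genes and 0.23 in all probe sets tested. An amplitude of at least 0.5 was reached by 3 PEX genes (PEX21, PEX18 and PEX30) and by 10 oxidation genes, while 15.3% of all probe sets reached it. The oxidation genes below that were FAA2, DCI1 and TES1. An amplitude of at least 0.3 was reached by 14 PEX genes and 12 oxidation genes, and by 35.7% of all probe sets. In timing, 17 PEX genes and 12 oxidation genes crested between 0 and 16 min, where 46.9% of all rhythmic probe sets crested. Between 16 and 32 min there were 3 PEX genes and 0 oxidation genes (26.3% of all), and between 32 and 48 min 5 PEX genes and 1 oxidation gene, CRC1 (26.7% of all). These counts describe the lists, and the difference between the lists was not tested.

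**Figure D3:**
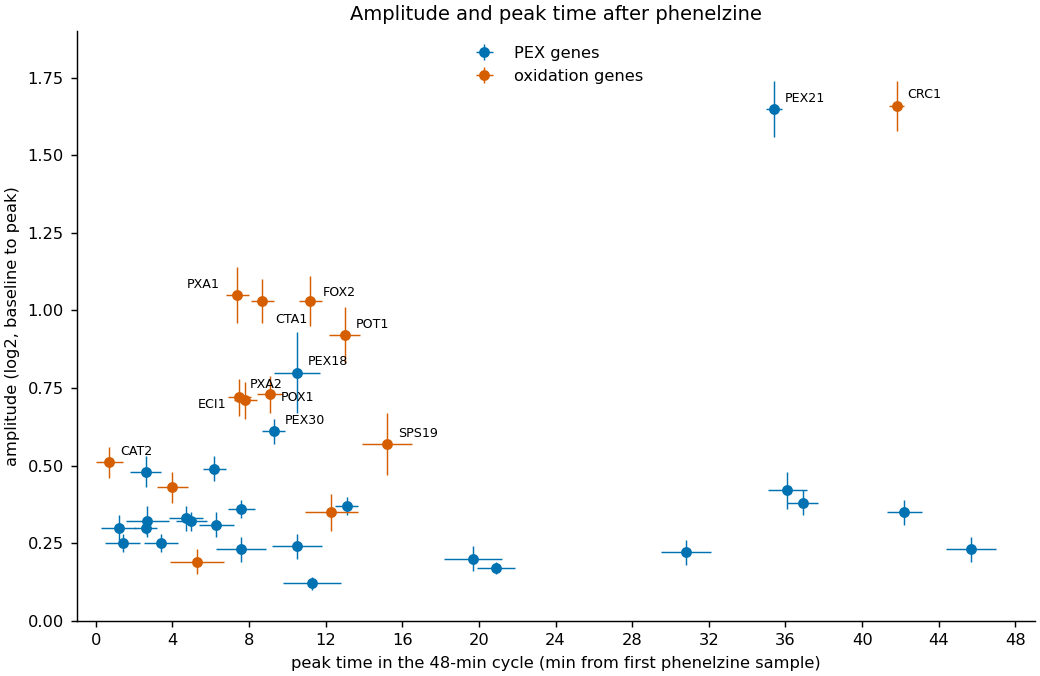
Fitted 48-min amplitude (log2, vertical axis) against fitted crest time in minutes of the cycle (horizontal axis) for 25 PEX genes (blue) and 13 oxidation genes (orange), each point with its SE. Oxidation genes other than CRC1 gather between 0.7 and 15.2 min at amplitudes up to 1.05, most PEX genes lie below 0.5, and PEX21 and CRC1 stand apart at 35.4 and 41.8 min.

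The same genes were rhythmic before phenelzine. A cosine of 40 min fitted to the 11 control arrays passed for 22 of 25 PEX genes and 13 of 13 oxidation genes (limma, adjusted p under 0.05), against 66.7% of all probe sets. PEX27, PEX19 and PEX32 did not pass, with adjusted p-values of 0.053, 0.077 and 0.34. The control amplitude was 1.67 ± 0.07 (SE, n = 11) for CRC1, 1.22 ± 0.12 for PEX21, 0.94 ± 0.10 for FOX2, 0.80 ± 0.09 for POX1 and 0.76 ± 0.11 for POT1. The median was 0.30 for PEX genes and 0.58 for oxidation genes, and 0.21 for all probe sets. The control covers about 1 cycle, so this fit cannot separate a cycle from a change in 1 direction and back. Crests of the smoothed series followed each other at 44, 44 and 48 min for FOX2, at 48, 44 and 48 min for POT1 and at 40, 48 and 52 min for SPS19. For CRC1 and PEX21 they followed at 44 and 48 min. The longest interval among the members with such crests was 52 min.

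A doubled period was tested directly, as a 96-min component beside the 48-min terms and a linear change. It passed for 0 of 38 genes (limma, Benjamini-Hochberg), against 0% of all probe sets tested. The lowest unadjusted p-values among the members were those of CAT2 (p = 0.0089, 96-min amplitude 0.11 ± 0.03, limma) and PEX19 (p = 0.019, 0.10 ± 0.03). The median 96-min amplitude was 0.04 for PEX genes, 0.09 for oxidation genes and 0.04 for all probe sets, and the largest among the members was 0.18 ± 0.07 for CRC1. The phenelzine samples span 144 min, which holds less than 2 such periods.

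Over whole groups the levels of these genes did not pass the test. Phenelzine and control samples were compared over 37 and 11 arrays with limma, and 0 of 38 members passed at an adjusted p of 0.05, against 0.465% of all probe sets. The lowest unadjusted p-values among the members belonged to PEX22, FAA2 and PEX6. PEX22 averaged 9.60 ± 0.25 in phenelzine samples (SD, n = 37) and 9.37 ± 0.21 in control samples (SD, n = 11), a log2 difference of 0.23 ± 0.08 (SE; adjusted p = 0.24, limma). FAA2 averaged 10.56 ± 0.21 in phenelzine samples and 10.40 ± 0.18 in control samples, a difference of 0.16 ± 0.07 (adjusted p = 0.41). The median difference was −0.02 for PEX genes and 0.07 for oxidation genes, and 0.00 for all probe sets. The standard error of this comparison holds the cycle itself and is widest for the most rhythmic genes, 0.42 for CRC1 and 0.39 for PEX21.

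Matching samples by phase narrows that error. Each of the 11 control arrays was paired with the phenelzine array 44 min later, and the pair was kept as a block. Of the 13 oxidation genes 4 passed, all lower in the phenelzine samples, and 0 of 25 PEX genes passed, while 8.49% of all probe sets did, 4.45% lower. DCI1 was lower by a log2 difference of −0.31 ± 0.08 (SE, 11 pairs; adjusted p = 0.027, limma) and lower in 10 of 11 pairs. POT1 differed by −0.22 ± 0.06 (adjusted p = 0.037, limma), lower in 9 pairs. CRC1 differed by −0.17 ± 0.04 (adjusted p = 0.026), lower in 10 pairs, and CAT2 by −0.15 ± 0.04 (adjusted p = 0.026), lower in 9 pairs. Of the remaining oxidation genes, FAA2 was the only one above 0, at 0.17 ± 0.05 (adjusted p = 0.055, limma) and higher in 10 of 11 pairs. At an unadjusted p under 0.05 there were 8 PEX genes and 9 oxidation genes. The share of all probe sets at this unadjusted threshold is not given, so these counts set nothing apart. The median difference was −0.07 for PEX genes and −0.15 for oxidation genes, and −0.01 for all probe sets, with 16 of 25 PEX genes and 12 of 13 oxidation genes below 0.

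These calls rest on the lag and on the scaling. With a lag of 40 or 48 min, or without the block, 0 of 38 members passed, where 0.0745%, 0.168% and 0.0186% of all probe sets passed. With arrays centred on their median only CAT2 passed, against 7.39% of all probe sets. With values as deposited 14 members passed, 7 PEX and 7 oxidation genes, against 17.6% of all probe sets. The median of all probe sets shifted by −0.13 in the deposited values of this comparison. The signs of the 4 genes stayed the same in all 8 other settings, where POT1 ran from −0.29 to −0.13 and DCI1 from −0.36 to −0.23. Leaving out the filter, the variance trend or the block cannot change these differences. Only the scalings, the pseudocount and the lags could have turned a sign.

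**Figure D4:**
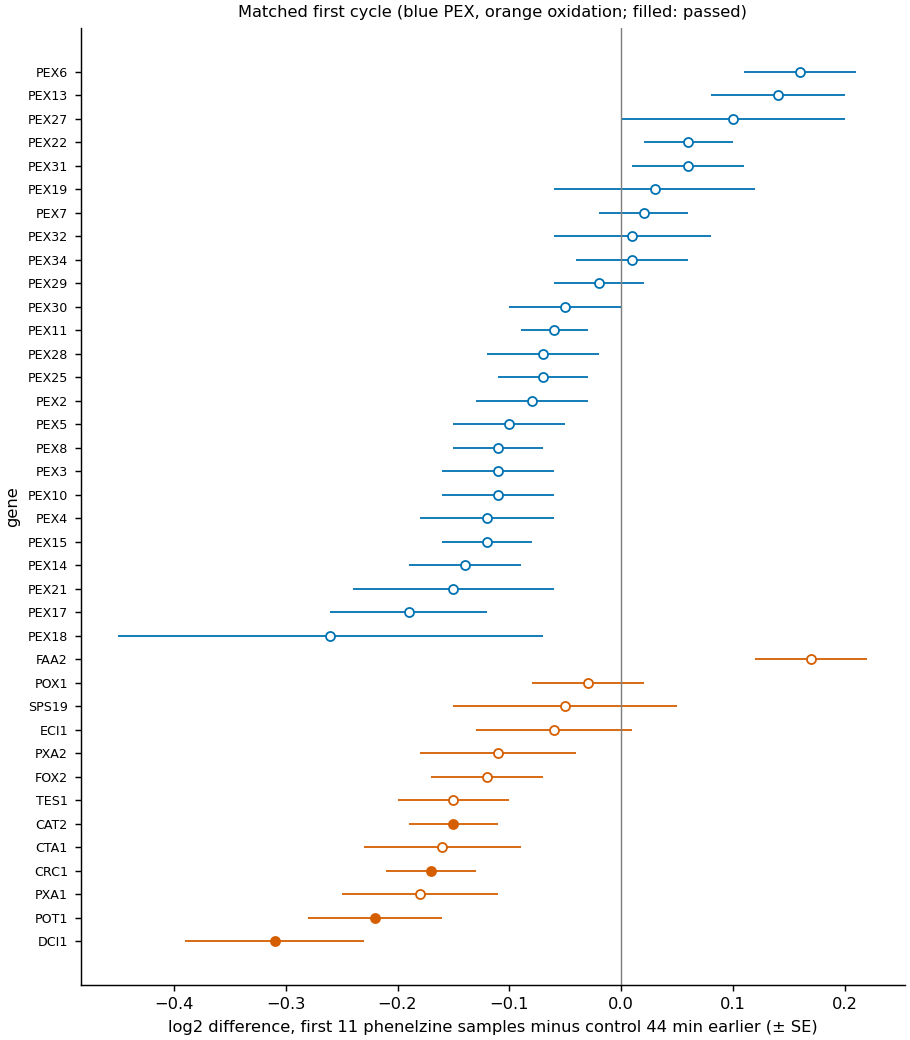
Log2 difference of the 11 first phenelzine samples minus the control samples 44 min earlier (horizontal axis, bars ± SE) for each PEX gene (blue) and oxidation gene (orange), filled where the adjusted p is under 0.05. The filled points are DCI1, POT1, CRC1 and CAT2, all left of 0, and FAA2 at 0.17 is the one oxidation gene right of it.

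Over the 144 min after phenelzine most oxidation genes had upward slopes when the rhythm was part of the fit. Without the rhythm terms 0 of 13 passed, with a median slope of 0.01, against 12.2% of all probe sets passing. A linear change, fitted beside the 48-min terms over 37 arrays, passed for 11 of 13 oxidation genes and 10 of 25 PEX genes (limma), against 39.8% of all probe sets, 20.6% higher and 19.2% lower. Among the oxidation genes 9 rose. SPS19 rose by a log2 of 0.45 ± 0.07 per hour (SE; adjusted p = 7.6e-06, limma), POT1 by 0.44 ± 0.06 (adjusted p = 9.4e-07) and FOX2 by 0.25 ± 0.07 (adjusted p = 0.0049). DCI1, ECI1, CTA1, PXA2, POX1 and TES1 rose by 0.21, 0.20, 0.19, 0.17, 0.15 and 0.12 per hour. The carnitine shuttle genes CAT2 and CRC1 fell, CAT2 with a slope of −0.18 ± 0.04 (adjusted p = 0.00016) and CRC1 with −0.19 ± 0.08 (adjusted p = 0.046). PXA1 at 0.19 ± 0.08 (adjusted p = 0.062) and FAA2 at −0.05 ± 0.04 did not pass.

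Among the PEX genes 4 rose and 6 fell, 16% and 24% of the 25, against 20.6% and 19.2% of all probe sets. PEX22, PEX4, PEX3 and PEX8 rose, by 0.14, 0.11, 0.11 and 0.07 per hour. The other receptor recycling genes, PEX6 and PEX15, had −0.05 and −0.04 per hour and did not pass. PEX21 fell with a slope of −0.24 ± 0.09 (adjusted p = 0.030, limma), PEX27 with −0.17 ± 0.04 (adjusted p = 0.00062), PEX25 with −0.12, PEX13 with −0.10, PEX31 with −0.09 and PEX11 with −0.07. The slopes of PEX25 and PEX11 were 0.01 and 0.09 in the values as deposited, which had a median slope of 0.11 over all probe sets. With arrays centred on their median, 7 of the 21 genes no longer passed, PEX4, PEX8, PEX11, PXA2, DCI1, CTA1 and CRC1, and none changed sign. The median slope was 0.00 for PEX genes and 0.19 for oxidation genes, and 0.00 for all probe sets.

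Fewer of these slopes passed within a range of arrays. In the 21 phenelzine arrays before the missing number, 5 members passed, against 7% of all probe sets, 2 higher (3.46% of all) and 3 lower (3.54%). They were POT1 at 0.39, PEX22 at 0.28, PEX25 at −0.31, CRC1 at −0.43 and PEX21 at −0.54 per hour. In the 16 arrays after it 2 passed, both lower, against 5.68% of all probe sets, 3.82% higher and 1.86% lower. They were CAT2 at −0.63 ± 0.10 (adjusted p = 0.0053, limma) and PEX30 at −0.52 ± 0.11 (adjusted p = 0.012). There SPS19 had 0.16 ± 0.23, POT1 −0.06 ± 0.22 and FOX2 −0.19 ± 0.28 per hour, none of which passed. PEX21 had 0.44 ± 0.27 there, opposite in sign to its slope over all arrays. The upward slope of the oxidation genes held its sign in the earlier arrays, in 9 of 9 genes. In the later arrays 7 of these 9 had slopes below 0, and the others were SPS19 and DCI1, at 0.16 and 0.00. Without the rhythm terms 1 member passed, PEX27 at −0.19, against 12.2% of all probe sets, 4.91% higher and 7.32% lower.

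**Figure D5:**
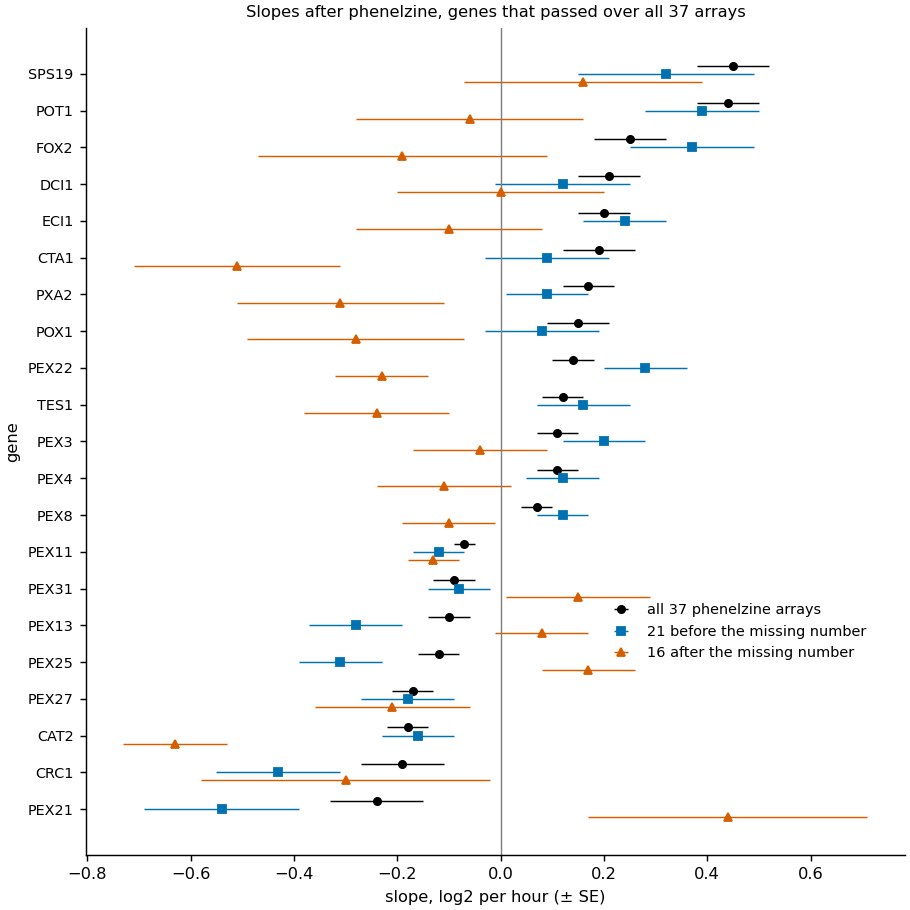
Slope in log2 per hour (horizontal axis, bars ± SE) of the 21 genes that passed over all 37 phenelzine arrays (black), in the 21 arrays before the missing array number (blue) and in the 16 after it (orange). Black and blue points share a side of 0 for every gene, while most orange points of the rising genes lie at or below 0. The blue and orange arrays are parts of the 37 over which the genes were picked.

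Around these members stand the regulators and partners of the pathway, 31 genes found of 32 listed. PIP2, the oleate-induced partner of Oaf1, crested at 10.8 min with an amplitude of 0.41 ± 0.04, while OAF1 had 0.06 ± 0.03 and did not pass the 48-min test (adjusted p = 0.079, limma). PIP2 had 9.09, 9.76 and 10.11 in phenelzine samples and 9.17, 9.81 and 10.24 in control samples. OAF3, a negative regulator of oleate response, crested at 42.0 min with 0.21 ± 0.04, and ADR1, an activator of genes for non-fermentable carbon, had 0.19 ± 0.05. Of the 31 genes 30 passed the 48-min test, against 87.8% of all probe sets, with a median amplitude of 0.28. The largest were STR3, a peroxisomal cystathionine beta-lyase, at 2.56 ± 0.17 and 34 min, and GTO1, an omega-class glutathione transferase, at 1.62 ± 0.10 and 38.8 min. YAT2, a cytosolic carnitine acetyltransferase, followed with 0.88 ± 0.05 at 40.3 min, near CRC1. IDP3, the peroxisomal isocitrate dehydrogenase that supplies NADPH to SPS19's product, had 0.78 ± 0.07 at 8.5 min, and ATG36, the receptor for the autophagy of peroxisomes, had 0.73 ± 0.06 at 9.2 min. Both crested among the beta-oxidation enzymes.

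In the matched comparison 2 of the 31 passed, PNC1, a nicotinamidase carried into peroxisomes, at −0.30 ± 0.07 (adjusted p = 0.021, limma) and YAT2 at −0.12 ± 0.04 (adjusted p = 0.045). This is 6.45% of the list, against 8.49% of all probe sets. With arrays centred on their median 1 passed, against 7.39% of all probe sets. With lags of 40 or 48 min or without the block 0 passed, where 0.0745%, 0.168% and 0.0186% of all probe sets passed. In the linear change after phenelzine 15 passed, 8 higher and 7 lower, or 25.8% and 22.6% of the 31, against 20.6% and 19.2% of all probe sets. Only 4 of the 31 passed in the arrays before the missing number (7% of all probe sets), 1 in those after it (5.68%) and 2 without the rhythm terms (12.2%). The higher ones were STR3 at 0.40, ATG11, a scaffold of selective autophagy, at 0.20, IDP3 at 0.17 and PNC1 at 0.16 per hour. FIS1, the fission adaptor, had 0.14, OAF1 0.08, INP1, which holds peroxisomes in the mother cell, 0.08 and the acyl-CoA synthetase FAA1 0.06. The lower ones were ANT1, the peroxisomal ATP carrier, at −0.19, OAF3 at −0.17, ADR1 at −0.16, YAT2 at −0.14, the aspartate aminotransferase AAT2 at −0.11 and the fission dynamins DNM1 at −0.10 and VPS1 at −0.09.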

How the data were processed

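Per the submitters' processing notes, the authors used GCOS to make the deposited linear signal intensity of 10928 probe sets. Its algorithm, target and later rescaling were not given in the sources, and how the deposited columns were scaled and centred is unknown. Names came from GEO's platform annotation and the R64 table of genes (3683 probe sets unnamed here). The deposited intensity was raised to 1 where it was lower, turned into log2 values and quantile normalized here. The filter kept 5372 budding yeast probe sets and left out 126 as dim. Tests used limma 3.58.1 (lmFit, eBayes with a mean-variance trend) in R 4.3.3 over all tested probe sets, and p-values were Benjamini-Hochberg adjusted at 0.05. Scripts were tested on simulated data.

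Members, lists, periods and lags were chosen with earlier results of these data known. Named in full were all oxidation genes, PEX genes that passed a test or had the 5 largest or 3 smallest amplitudes, and other pathway genes that passed, had the 5 largest amplitudes or are regulators. PEX genes outside the rule appear by role, and PEX30's slope after the missing array number was named after its value was seen. Control array k and the phenelzine array 44 min later deviated together (correlations 0.52 to 0.80 in 11 pairs), a pairing by phase that comes from the sampling times and not from the labels. Alternatives were scalings, a pseudocount of 50, no filter, no variance trend, array ranges and name suffix, lags, periods and the block. Crests were read from a running mean over 3 samples, as the highest point within 12 min on either side, for genes with an amplitude of at least 0.5. Figures used matplotlib 3.10.9 in Python 3.11.15. The number of arrays, all of 1 culture, limits the precision.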

Additional observations from a re-analysis of the deposited data

How the results depend on the processing

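The 48-min rhythm, the control rhythm and the 96-min component kept their counts of members within 1.5 times, and the median amplitudes of PEX and oxidation genes stayed within their spread, in every alternative run for them. The other counts moved, and the cause was not tested. The level comparison had 0 members and 4 with the pairs of 44 min as a replicate block. Of the 5372 probe sets tested, 25 passed in the main level comparison and 454 with this block. The block rests on the same 11 pairs as the matched comparison and turned POT1 to −0.22. The matched comparison had 4 members, and 14 with values as deposited, 1 with arrays centred on their median and 0 with no replicate block or with lags of 40 or 48 min. Shares of all probe sets in these matched settings are given above. The slope had 21 members, and 5 with only arrays before the missing number, 2 with only arrays after it (an alternative chosen after seeing the data, as was the same range for the 48-min rhythm) and 1 with no rhythm terms. Only after the missing number, slopes turned to 0.08 for PEX13, −0.10 for PEX8, 0.44 for PEX21, −0.11 for PEX4, −0.23 for PEX22, −0.04 for PEX3, 0.17 for PEX25, −0.52 for PEX30 and 0.15 for PEX31. The same range gave −0.28 for POX1, −0.19 for FOX2, −0.06 for POT1, −0.31 for PXA2, −0.10 for ECI1, −0.24 for TES1 and −0.51 for CTA1. With no rhythm terms they turned to −0.02 for PEX8, 0.17 for PEX21, −0.02 for POX1, −0.01 for FOX2, −0.05 for CTA1 and 0.11 for CRC1, and with values as deposited to 0.09 for PEX11 and 0.01 for PEX25. Signal near background limits PEX18 most.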

Other observations

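The arrays also carry probe sets for the fission yeast Schizosaccharomyces pombe, which the culture did not hold. Its 8 probe sets for genes named like the members averaged a log2 deposited signal of 1.69 ± 0.43 in phenelzine samples (SD, n = 37) and 1.53 ± 0.36 in control samples (SD, n = 11), a difference of 0.16 with a two-sided permutation p of 0.28 (100000 resamples). Their highest mean on any array was 2.77. The background filter of 3.01 was set from fission yeast probe sets and from quantile-normalized values, so it is no separate yardstick for this mean.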
